A study of Rattus norvegicus with 9 samples.

Results

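Cells of the gut wall receive signals through receptors for acetylcholine, amines, amino acids and ATP, and the gene symbols of these receptors name the transmitter and the subunit. Probe sets were taken from the Affymetrix rat genome array wherever their 1 gene symbol began with Chrn or Chrm (nicotinic and muscarinic acetylcholine receptors), Gabr (GABA type A), Gria, Grik, Grin or Grm (glutamate), Htr (serotonin), Adra or Adrb (adrenergic), Drd (dopamine), P2rx or P2ry (ATP and other nucleotides) or Hrh (histamine). This gave 145 probe sets of 98 genes among the 8799 probe sets of the array, which name 4737 genes by a single symbol. A signal of 100 was taken as the limit of background, and 58 probe sets of 44 genes had a mean of at least 100 in 1 or more diets. The other 87, or 60% of the receptor probe sets, were under 100 in all 3 diets, as were 35.9% of all probe sets that were not array controls.

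Receptors of the first kind, ligand-gated channels, open within moments of binding transmitter and carry fast excitation or inhibition between neurons, and the Chrn, Htr3, P2rx, Gabr, Gria, Grik and Grin genes encode their subunits. The other kind, coupled to G proteins, acts more slowly on neurons, smooth muscle, glands and immune cells, and most receptors for serotonin, catecholamines, histamine and muscarinic acetylcholine belong to it. In the colon, fast transmission within the myenteric and submucosal plexuses runs mainly through nicotinic receptors, with P2X and 5-HT3 receptors adding to it.

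The study fed male Sprague Dawley rats, and their mothers before them, semi-purified AIN-93G diets that differed only in protein, which was whey protein hydrolysate (WPH), soy protein isolate (SPI) or casein (CAS). Rats of all 3 diets received azoxymethane, a colon carcinogen, under the skin at 15 mg per kg once a week for 2 weeks from 90 days of age, and non-tumour tissue of the proximal colon, mucosa with smooth muscle, was taken 40 weeks later. RNA of 7 rats was pooled per diet and 3 targets made in parallel from each pool were hybridized, giving 3 arrays each for WPH, SPI and CAS. The adjusted p-values (limma, Benjamini-Hochberg over 5606 probe sets) therefore measure the spread between targets of 1 pool, which is technical, and say nothing of the spread between rats.

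After the scaling of the deposited signals to a common average, the 9 arrays had a median signal between 149 and 165. Between 58.6% and 60.2% of probe sets were at 100 or more. The scaling itself brings such values together, so they do not show that the arrays were alike before it. The times labelled Hybridize Date in their instrument settings fell into 3 rounds, here called wash rounds, though the label names no wash. The first held the 3 CAS arrays and WPH replicate 2, and the second held WPH replicates 1 and 3 and SPI replicates 1 and 2. SPI replicate 3 alone made up the third. No round held both SPI and CAS arrays, so wash round and diet cannot be told apart for SPI against CAS except by way of the WPH arrays. Only the first round held both WPH and CAS arrays. Wherever wash round is fitted as a block below, the WPH against CAS difference is that of WPH replicate 2 from the CAS arrays. It rests on 1 WPH array.

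Marker genes of the tissue's cell types also differed between the pools. Enteric neuron markers, such as peripherin (Prph) and synapsin II (Syn2), summed to between 23229 and 24276 with WPH, between 14658 and 15527 with SPI and between 9348 and 9727 with CAS. With WPH, 17 of the 18 neuron markers compared were higher than with CAS and 0 were lower, at a median log2 change of 1.30. Chat, Nos1 and Nefh, which also mark enteric neurons, were under 100 in all diets. The 10 smooth muscle markers summed to between 227595 and 258267 with WPH, between 170009 and 173456 with SPI and between 119078 and 121408 with CAS, and 9 of them were higher with WPH than with CAS (median log2 change 1.01).

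Other layers of the wall moved as well. The 15 epithelial markers summed to between 14241 and 15798 with WPH, between 38274 and 40103 with SPI and between 68059 and 73002 with CAS, and all 15 were lower with WPH than with CAS (median log2 change -2.39). Glial markers, led by S100b, summed to between 3922 and 5130 with WPH, between 2687 and 3271 with SPI and between 2058 and 2104 with CAS. Adipocyte markers such as Cfd and Lpl summed to between 12237 and 13745 with WPH, between 9322 and 9767 with SPI and between 5877 and 6883 with CAS. Of the 6 adipocyte markers compared, 4 were higher and 1 was lower with WPH than with CAS. Plin1, another of them, was under 100 in all diets. Fewer cells of a type and less RNA per cell cannot be told apart in such bulk samples. The part of these cell types in the receptor values below was not tested.

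**Figure D1:**
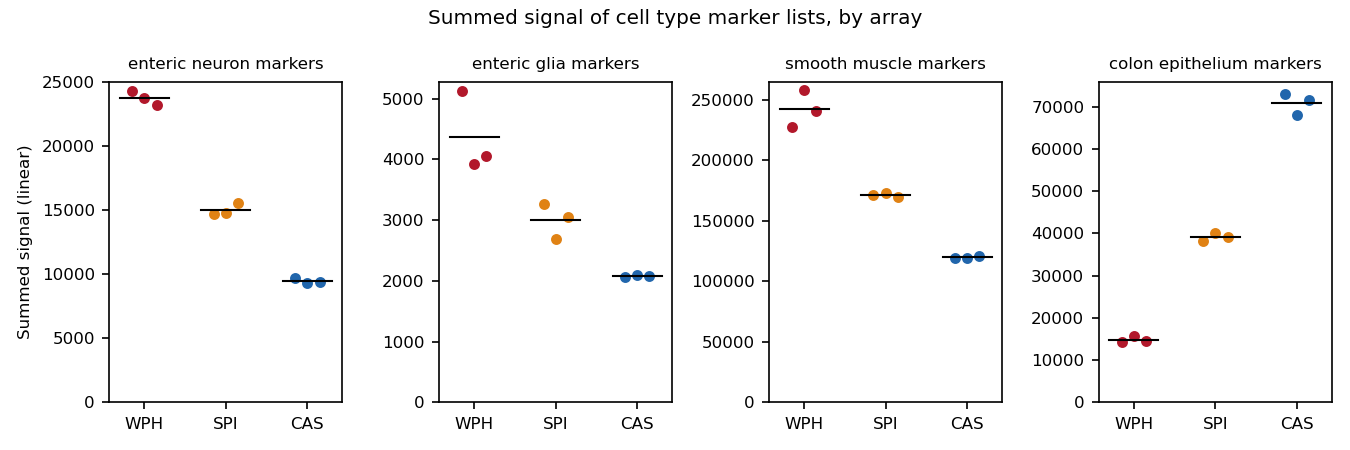
Summed linear signal of 4 marker lists (vertical axis) on each array, with WPH, SPI and CAS from left to right and a line at the mean of 3 arrays. Neuron, glia and smooth muscle sums were highest on the WPH arrays and lowest on the CAS arrays, while the epithelial sum had the reverse order, and no array of one diet overlapped those of another.

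In WPH against CAS, 15 of the 58 receptor probe sets compared (25.9%) were higher at an adjusted p under 0.05, against 20.9% of all probe sets, and 1 (1.72%) was lower, against 17.9% of all. The 15 belonged to 9 genes, namely Chrna3, Chrnb4, Htr3a, Htr2b, Gabrd, P2rx2, P2rx6, Adrb3 and Adra1d, and the lower one was P2rx4. P2rx2 and Htr3a together supplied 8 of the 15. When each gene was held to its brightest probe set (by the mean log2 signal over the 9 arrays), 8 of 44 receptor genes (18.2%) were higher, against 21.6% of all genes. The median log2 change over the 58 was 0.20 (SD between the WPH arrays 0.16) against 0.06 over all probe sets. At 1 probe set per gene the median of the receptors was 0.13. Of the 58, 11 had passed the limit of 100 in only 1 diet, 5 of these in WPH, and such a probe set can enter a comparison because it differs. Adra1d (M60654_at) is 1 of these 5, and it is counted among the 15.

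**Figure D2:**
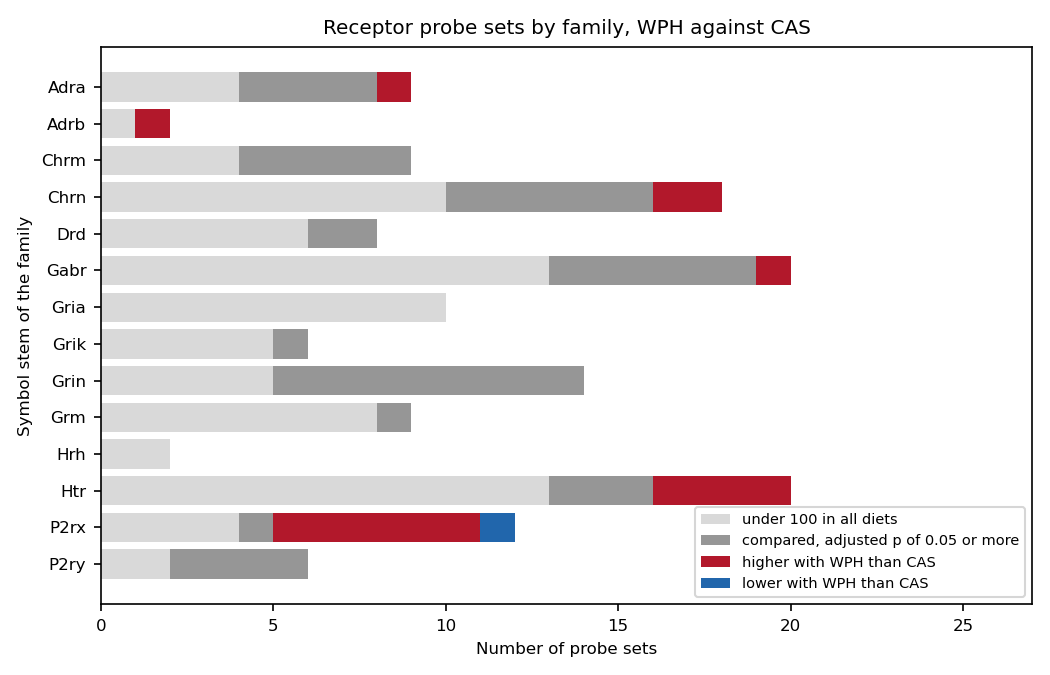
Number of receptor probe sets (horizontal axis) in each family, named by its symbol stem, split into those under 100 in all diets, those compared but not called, and those higher or lower with WPH than with CAS. Calls lie in the Chrn, Htr, Gabr, P2rx, Adra and Adrb families, and 10 Gria and 2 Hrh probe sets were all under 100.

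With measured mean signals at least 2-fold apart asked for as well, 8 receptor probe sets (13.8%) were higher with WPH than with CAS, against 5.55% of all, and 0 were lower, against 8.47% of all. Those 8 were the 3 of Htr3a, 2 of P2rx2, and 1 each of Chrna3, Adrb3 and Adra1d. On the brightest probe set of each of these genes, Chrna3, Htr3a and Adrb3 were 2.34-fold, 2.03-fold and 2.03-fold higher. P2rx2 was 1.47-fold and Adra1d 1.04-fold higher there, and no share at 2-fold was taken at 1 probe set per gene. The CAS mean was under 100 for 4 of the 8 (Adra1d, AF020757_s_at of P2rx2, and U59672_at and D49395_s_at of Htr3a), and for Adra1d only a bound of 1.75-fold is known. All 3 WPH arrays lay above all 3 CAS arrays for 19 receptor probe sets (32.8%, against 28% of all) and below them for 2 (3.45%, against 22.4%), which were P2rx4 and a probe set of Chrm2.

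**Figure D3:**
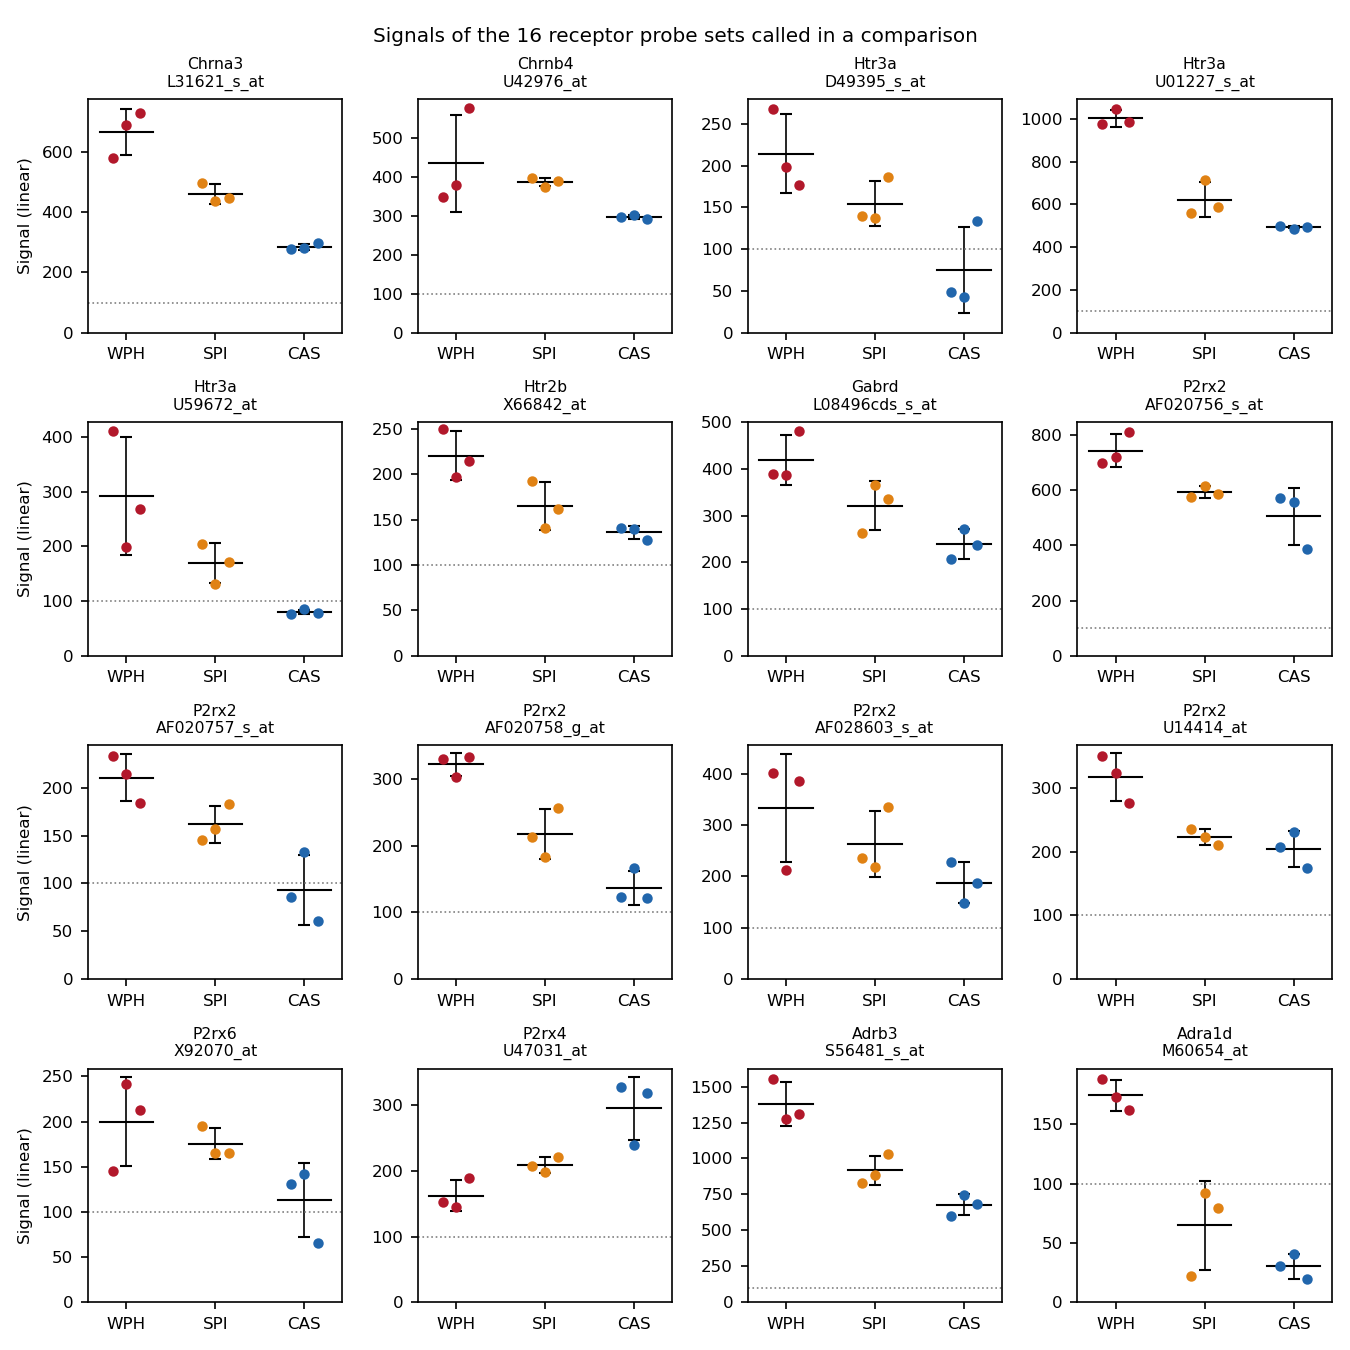
Linear signal (vertical axis, dotted line at 100) of the 16 receptor probe sets called in a comparison, with each array as a point, the mean as a line and the SD as a bar, for WPH, SPI and CAS from left to right. The WPH points lie above the CAS points in 14 panels, overlap them for AF028603_s_at of P2rx2, and lie below them for P2rx4.

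Nicotinic receptors are pentameric cation channels opened by acetylcholine, and in autonomic and enteric ganglia most contain the α3 subunit, encoded by Chrna3, together with β4, encoded by Chrnb4. Chrna3 (L31621_s_at) had signals of 579, 689 and 728 with WPH, 497, 437 and 446 with SPI and 276, 280 and 296 with CAS. The 3 diets did not overlap. Chrna3 was 2.34-fold higher with WPH than with CAS (log2 change 1.22, SE 0.12, adjusted p = 1.42e-05), a call kept under all alternatives that gave a p-value. It was 1.62-fold higher with SPI than with CAS (adjusted p = 0.00207) and 1.45-fold lower with SPI than with WPH (adjusted p = 0.0116). With wash round as a block these last 2 differences were not called, at adjusted p of 0.123 (with a range of 0.000852 to 0.123 over the alternatives) and 0.109 (0.00766 to 0.109).

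Chrnb4 was measured by 2 probe sets that did not move together. U42976_at gave 347, 379 and 576 with WPH, 396, 375 and 389 with SPI and 297, 301 and 292 with CAS. WPH replicate 3 stood above all others, and every WPH and SPI array lay above the CAS arrays. The gene was 1.46-fold higher on this probe set with WPH than with CAS (log2 change 0.51, SE 0.17, adjusted p = 0.0366). The call was lost with wash round as a block (adjusted p = 0.377, with a range of 0.0141 to 0.377 over the alternatives) and without WPH replicate 3, SPI replicate 1 or any 1 CAS replicate (adjusted p = 0.0506 to 0.104). It was lost too without a filter, with only the 2 compared diets in the fit, and by the methods' t-test, both unadjusted and adjusted (adjusted p = 0.233). The other probe set, J05232cds_s_at, gave 182, 178 and 193 with WPH, 152, 144 and 179 with SPI and 261, 197 and 150 with CAS, with overlap between WPH and CAS (log2 change -0.10, adjusted p = 0.748).

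Chrna3 and Chrnb4 are neighbours on rat chromosome 8, with Chrna5, the gene of an accessory nicotinic subunit, on the other side of Chrna3. Chrna5 (J05231_at) was under 100 on every array, at 78.5, 69.3 and 72.4 with WPH, 44.1, 47.2 and 60.2 with SPI and 48.8, 52.2 and 39.5 with CAS, and was not compared. The 250 bases before the annotated starts of Chrna3 (chr8:64311252-64311501, minus strand) and Chrnb4 (chr8:64333110-64333359, minus strand) are shown because these neighbours were both called (RefSeq, build GRCr8). Capitals mark GC boxes (GGGCGG on either strand, in 30.5% of all 33469 rat promoters of this length) and E boxes (CANNTG, in 65.5%). No capital letters of the 2 motifs overlap here, Chrna3 holds 2 GC boxes and 1 E box, Chrnb4 holds 1 of each, and a match describes only the letters.
Chrna3: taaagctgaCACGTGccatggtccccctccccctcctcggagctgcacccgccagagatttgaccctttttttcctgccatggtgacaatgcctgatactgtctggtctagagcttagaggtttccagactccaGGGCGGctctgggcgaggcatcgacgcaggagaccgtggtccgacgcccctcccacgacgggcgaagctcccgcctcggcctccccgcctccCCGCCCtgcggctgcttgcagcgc
Chrnb4: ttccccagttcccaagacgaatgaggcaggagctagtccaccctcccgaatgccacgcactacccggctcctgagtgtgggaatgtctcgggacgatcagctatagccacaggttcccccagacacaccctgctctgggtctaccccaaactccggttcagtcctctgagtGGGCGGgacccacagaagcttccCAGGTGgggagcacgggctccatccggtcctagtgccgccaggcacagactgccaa

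Among the 10 genes called in WPH against CAS, 7 had such a promoter entry, of which 3 held a GC box and 5 an E box. Neither CCAAT, found in 34% of all promoters, nor TATAAA, found in 12.9%, occurred in any of the 7. Gabrd held 4 GC boxes and no E box.

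The other nicotinic subunits gave no call. Of 18 nicotinic probe sets, 8 were compared, and the 6 that were not called had log2 changes between -0.29 (Chrne) and 0.42 (Chrna1) with WPH against CAS. Chrng (X74834cds_s_at), the γ subunit of the fetal muscle receptor, was the brightest of these, at 302, 334 and 388 with WPH, 313, 363 and 405 with SPI and 467, 330 and 405 with CAS, and its diets overlapped. Chrna7, which makes a homomeric receptor on neurons and macrophages, had 128 to 236 with WPH, 98.4 to 235 with SPI and 152 to 205 with CAS on L31619_at, while its other 2 probe sets were under 100 in all diets.

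Muscarinic receptors carry the main contractile signal of acetylcholine to intestinal smooth muscle, chiefly through M3 (Chrm3) with M2 (Chrm2) the more abundant protein. Of 9 muscarinic probe sets 5 were compared, and none was called. In WPH against CAS, calls made up 20.9% (higher) and 17.9% (lower) of everything compared on the array. On the same arrays 9 of 10 smooth muscle markers were higher with WPH than with CAS. The part of muscle in the muscarinic values was not tested. Chrm3 (M16407_at) gave 293, 341 and 378 with WPH, 364, 436 and 375 with SPI and 314, 322 and 345 with CAS. These overlapped between WPH and CAS, and the log2 change was 0.04 (SE 0.14, adjusted p = 0.859). Chrm2 had 69.3, 71.2 and 81.1 with WPH, 92.5, 104 and 108 with SPI and 107, 110 and 109 with CAS on AB017655_s_at. All WPH arrays lay below all CAS arrays on this probe set (log2 change -0.56, adjusted p = 0.0812), and it was called lower with the floor at 50 (adjusted p = 0.0430), without the variance trend (adjusted p = 0.00351) and by the methods' t-test, 3 of 19 alternatives, over which the adjusted p ranged between 0.00351 and 0.247. On J03025_at Chrm2 had 132, 92.5 and 120 with WPH, 104, 122 and 126 with SPI and 90.6, 97.1 and 104 with CAS, with a log2 change of 0.23 in the other direction (adjusted p = 0.474).

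Serotonin from enterochromaffin cells acts on enteric and sensory nerve endings through the 5-HT3 receptor, a cation channel whose obligatory subunit is encoded by Htr3a. All 3 Htr3a probe sets were higher with WPH than with CAS. U01227_s_at, the brightest, had 976, 1046 and 983 with WPH, 561, 715 and 589 with SPI and 498, 486 and 495 with CAS. The diets did not overlap, and WPH was 2.03-fold higher than CAS (log2 change 1.02, SE 0.11, adjusted p = 2.97e-05). SPI was 1.61-fold lower than WPH on the same probe set (adjusted p = 0.00136), and both calls were kept under all alternatives that gave a p-value.

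The dimmer Htr3a probe sets differed in the same direction. U59672_at had 410, 199 and 269 with WPH, 204, 131 and 172 with SPI and 77.2, 84.8 and 78.2 with CAS. As every CAS array was under 100, those arrays were set to 100 and the fold is a bound, at least 2.93-fold higher with WPH (log2 change of the measured values 1.81, SE 0.27, adjusted p = 0.000256) and at least 1.69-fold higher with SPI (adjusted p = 0.0153). The WPH call stood with wash round as a block (log2 change 1.31, adjusted p = 0.0220), but not by the methods' t-test after adjustment (adjusted p = 0.0776, with a range of 0.000122 to 0.0776 over the alternatives). The SPI call did not stand with the block (log2 change 0.29, adjusted p = 0.795, with a range of 0.00782 to 0.795 over the alternatives), nor without SPI replicate 1 or 3 (adjusted p = 0.0678 and 0.0502). D49395_s_at had 268, 198 and 177 with WPH, 140, 138 and 186 with SPI and 48.2, 42.4 and 134 with CAS. CAS replicate 3 stood well above the other 2 CAS arrays, though still below every WPH and SPI array. WPH was 2.86-fold higher than CAS (log2 change 1.70, SE 0.39, adjusted p = 0.00468), which the wash round block took past the threshold (adjusted p = 0.0804, with a range of 0.000158 to 0.0804 over the alternatives), and SPI was 2.06-fold higher (adjusted p = 0.0424). The SPI call was lost without WPH replicate 2 or 3, any 1 SPI replicate, or CAS replicate 1 or 2 (adjusted p = 0.0501 to 0.142), and with wash round as a block (adjusted p = 0.581, with a range of 0.00198 to 0.581 over the alternatives).

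Htr2b encodes a G protein-coupled serotonin receptor of smooth muscle, interstitial cells and neurons. X66842_at had 249.7, 197 and 214 with WPH, 192, 141 and 162 with SPI and 141, 139.7 and 128 with CAS. WPH lay above both other diets without overlap, 1.62-fold higher than CAS (log2 change 0.69, SE 0.18, adjusted p = 0.0106), and this was not called with wash round as a block (log2 change 0.53, adjusted p = 0.192, with a range of 0.00526 to 0.192 over the alternatives). The remaining serotonin receptors were dim. Of 20 probe sets 13 were under 100 in all diets, among them all 3 of Htr4, the receptor targeted by prokinetic drugs, and Htr1d, Htr5a and Htr6 were compared with log2 changes of -0.56, -0.29 and -0.41 and adjusted p of 0.146, 0.383 and 0.582.

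P2X receptors are trimeric cation channels opened by ATP, and P2X2 is a subunit of enteric neurons that mediates fast excitation there. P2rx2 had 6 probe sets, all with a mean of at least 100 in 1 or more diets, of which 5 were higher with WPH than with CAS and 1 was not. AF020758_g_at had 330, 303 and 332 with WPH, 212, 184 and 257 with SPI and 123, 166 and 122 with CAS. The diets did not overlap, and the signal was 2.35-fold higher with WPH than with CAS (log2 change 1.24, SE 0.18, adjusted p = 0.000238). This call was kept under all alternatives that gave a p-value. AF020758_at, named for the same sequence record, had 520, 615 and 611 with WPH, 607, 541 and 644 with SPI and 567, 671 and 540 with CAS, with full overlap and a log2 change of -0.02 (SE 0.13, adjusted p = 0.906).

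The other 4 P2rx2 probe sets fell between these. AF020757_s_at had 233, 215 and 184 with WPH, 146, 157 and 183 with SPI and 85.6, 133 and 60.8 with CAS, and WPH was 2.26-fold higher than CAS (adjusted p = 0.00346). U14414_at had 350.1, 322 and 276 with WPH, 236, 222 and 210.4 with SPI and 207, 230.2 and 175 with CAS, and WPH was 1.55-fold higher than CAS (adjusted p = 0.00755). AF020756_s_at, the brightest probe set of the gene, had 698, 718.5 and 810.2 with WPH, 575, 615 and 587 with SPI and 572.5, 555 and 387 with CAS, and WPH was 1.47-fold higher (adjusted p = 0.0101). On each of these 3 the WPH arrays stood above all CAS arrays.

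AF028603_s_at was the least even of the P2rx2 probe sets, with 401, 213 and 386 with WPH, 235, 218 and 336 with SPI and 228, 147 and 188 with CAS. WPH replicate 2 lay within the CAS range, and the difference of 1.78-fold (adjusted p = 0.0366) was lost without WPH replicate 1 or 3 or CAS replicate 2 or 3 (adjusted p = 0.0806 to 0.125). It was lost too without a filter, without the variance trend and by the methods' t-test, both unadjusted and adjusted (adjusted p = 0.180). With wash round as a block 3 of the 5 P2rx2 calls were lost, at adjusted p = 0.626 for AF028603_s_at (range over the alternatives 0.00511 to 0.626), 0.140 for AF020756_s_at (0.00672 to 0.140) and 0.0740 for U14414_at (0.00588 to 0.0740). The log2 changes of these 5 probe sets kept their sign with the block.

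**Figure D4:**
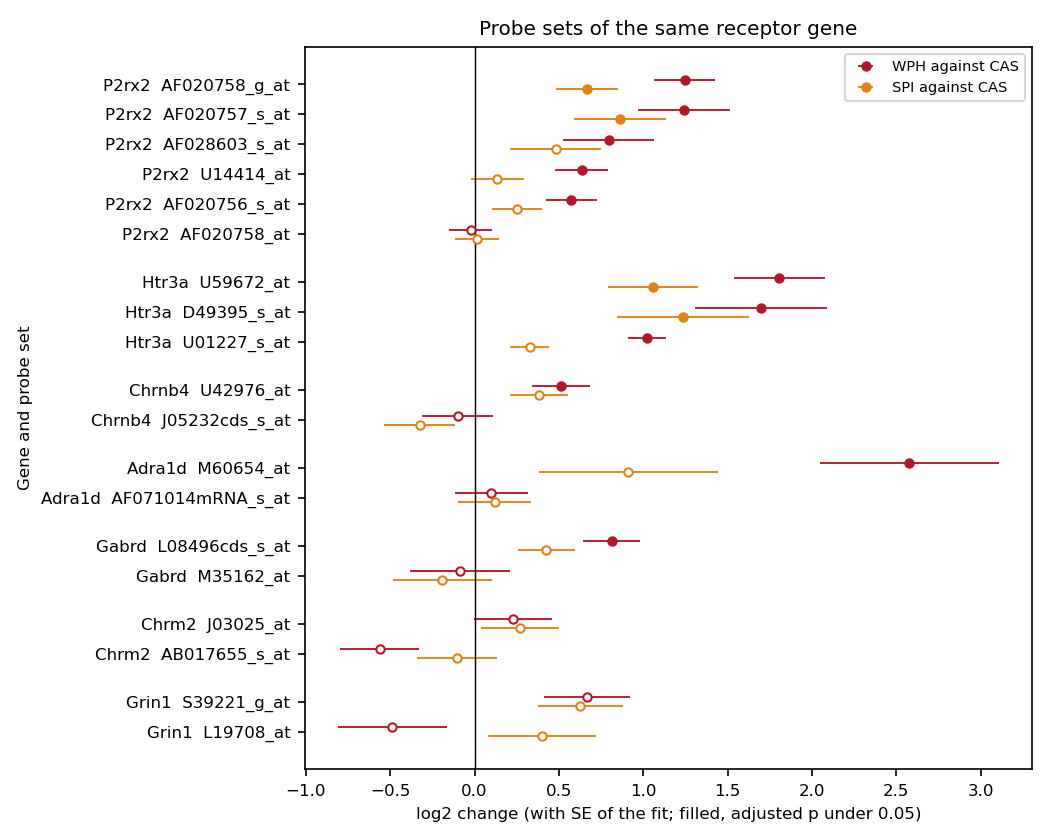
The log2 change (horizontal axis, with the SE of the fit) of each compared probe set of 7 receptor genes for WPH against CAS and SPI against CAS, with filled points at an adjusted p under 0.05. The 3 Htr3a probe sets lie to the right of 0, whereas P2rx2, Chrnb4, Adra1d, Gabrd, Chrm2 and Grin1 each have a probe set at or left of 0 or near it beside one to the right in WPH against CAS.

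P2rx6 encodes a subunit that is thought to work mostly together with other P2X subunits. X92070_at had 145, 242 and 212 with WPH, 195, 166 and 165 with SPI and 131, 142 and 66.1 with CAS. The lowest WPH array lay just above the highest CAS array, and WPH was 1.77-fold higher (log2 change 0.87, SE 0.30, adjusted p = 0.0398). This call was lost without WPH replicate 2 or 3, SPI replicate 1 or 3, or CAS replicate 3 (adjusted p = 0.0520 to 0.138), and with wash round as a block (adjusted p = 0.0862, with a range of 0.0211 to 0.167 over the alternatives). It was lost too without a filter, with only the 2 compared diets in the fit, and by the methods' t-test, both unadjusted and adjusted (adjusted p = 0.167).

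P2rx4 was the 1 receptor gene lower with WPH than with CAS. Its product is an ATP-gated channel found in macrophages, epithelia and many other cells. U47031_at had 152, 145 and 190 with WPH, 206, 198 and 221 with SPI and 327, 239 and 318 with CAS. The diets did not overlap, and P2rx4 was 1.82-fold lower with WPH than with CAS (log2 change -0.86, SE 0.18, adjusted p = 0.00233). This call was kept under all alternatives that gave a p-value, with adjusted p = 0.0198 with wash round as a block (range 0.00158 to 0.0465). The difference of SPI from CAS was -0.48 on the log2 scale (adjusted p = 0.0724). In these pools the epithelial marker sum was also lowest with WPH, while of 9 T, B and myeloid cell markers 5 were higher and 1 lower with WPH than with CAS. The part of either in the P2rx4 signal was not tested.

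The promoter of P2rx4 (chr12:39523090-39523339, minus strand, RefSeq GRCr8) is shown as that of the gene that went the other way. It held no GC box, and the 1 E box is in capitals.
P2rx4: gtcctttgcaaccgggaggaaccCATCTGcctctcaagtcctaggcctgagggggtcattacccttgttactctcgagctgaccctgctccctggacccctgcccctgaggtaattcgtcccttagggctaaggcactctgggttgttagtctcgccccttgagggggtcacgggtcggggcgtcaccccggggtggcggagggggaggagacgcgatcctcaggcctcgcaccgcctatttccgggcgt

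P2rx1, P2rx3, P2rx5 and P2rx7 were under 100 in all diets. The P2Y receptors, which bind nucleotides and couple to G proteins, had 4 of 6 probe sets compared and none called. Of all probe sets compared, 20.9% were higher and 17.9% lower in WPH against CAS, and 12% and 10.2% in SPI against CAS. P2ry2 (U56839_at), a receptor for ATP and UTP on epithelium, had the highest mean over the 9 arrays, at 160, 228 and 203 with WPH, 203, 199 and 219 with SPI and 131, 147 and 151 with CAS. Both WPH and SPI lay above CAS without overlap, at log2 changes of 0.45 (adjusted p = 0.0665) and 0.53 (adjusted p = 0.0519). P2ry6 (D63665_at), which binds UDP, had 170, 151 and 100.3 with WPH, 244, 164 and 224 with SPI and 106, 142 and 129 with CAS, with a log2 change of 0.74 for SPI against CAS (adjusted p = 0.0568).

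Noradrenaline from sympathetic nerves acts through adrenergic receptors, and the β3 receptor (Adrb3) is known from fat cells and from relaxation of gut smooth muscle. Adrb3 (S56481_s_at) had 1552, 1272 and 1308 with WPH, 833, 888 and 1032 with SPI and 603, 749 and 683 with CAS. The 3 diets did not overlap. Adrb3 was 2.03-fold higher with WPH than with CAS (log2 change 1.02, SE 0.13, adjusted p = 7.16e-05), a call kept under all alternatives that gave a p-value. It was 1.35-fold higher with SPI than with CAS (adjusted p = 0.0303) and 1.5-fold lower with SPI than with WPH (adjusted p = 0.00764). The difference of SPI from WPH was not called by the methods' t-test after adjustment (adjusted p = 0.0824, with a range of 0.00622 to 0.0824 over the alternatives). The call for SPI against CAS was lost without SPI replicate 3 or CAS replicate 1 or 3 (adjusted p = 0.0732 to 0.121), and with wash round as a block (log2 change 0.18, adjusted p = 0.745, with a range of 0.0199 to 0.745 over the alternatives). Of 6 adipocyte markers 4 were higher and 1 lower with WPH than with CAS, and hormone-sensitive lipase (Lipe), an adipocyte enzyme, had a log2 change of 0.94 (adjusted p = 5.98e-05). The part of fat cells and muscle in the Adrb3 signal was not tested.

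Adra1d encodes an α1 receptor of vascular smooth muscle, and its 2 probe sets differed. M60654_at had 188, 173 and 162 with WPH, 22.4, 92.4 and 79.9 with SPI and 31.0, 40.7 and 19.7 with CAS. Only the WPH arrays were above 100, so the probe set entered the comparison through WPH alone, and the difference was at least 1.75-fold against either other diet. Its calls and its log2 changes rest on signals under 100 and are given as description. The log2 change of the measured values was 2.58 with WPH against CAS (SE 0.53, adjusted p = 0.00239) and -1.67 with SPI against WPH (adjusted p = 0.0477). The second of these was lost without any 1 WPH replicate, SPI replicate 1 or 3, or CAS replicate 1 or 2 (adjusted p = 0.0518 to 0.120). AF071014mRNA_s_at, the brightest of the α receptor probe sets, had 189, 208 and 198 with WPH, 185, 198 and 220 with SPI and 242, 130 and 200 with CAS, with a log2 change of 0.10 (adjusted p = 0.751). Adra1a, Adra2a and Adra2b were compared without a call, and Adra1b, Adra2c and Adrb1 were under 100.

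GABA type A receptors are chloride channels, and their δ subunit, encoded by Gabrd, belongs to receptors outside the synapse. Gabrd (L08496cds_s_at) had 389, 386 and 481 with WPH, 263, 365 and 336 with SPI and 207, 271 and 238 with CAS. All WPH arrays lay above the SPI and CAS arrays, and WPH was 1.76-fold higher than CAS (log2 change 0.81, SE 0.17, adjusted p = 0.00251). With wash round as a block the log2 change was 0.70 (adjusted p = 0.0762, with a range of 0.00184 to 0.0762 over the alternatives). The second Gabrd probe set, M35162_at, lay at the limit of background with 73.7, 89.6 and 119 with WPH, 86.5, 92.2 and 79.6 with SPI and 72.3, 111 and 118 with CAS, and had a log2 change of -0.09 (adjusted p = 0.845). Of 20 GABA type A probe sets 13 were under 100 in all diets.

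Glutamate receptors gave no call in WPH against CAS, where 20.9% of all probe sets compared were higher and 17.9% lower. AMPA receptor subunits (Gria), which carry most fast excitation in the brain, were under 100 in all diets on all 10 probe sets, the brightest being Gria1 (S56679_s_at) with 88.7, 106.5 and 59.5 with WPH, 55.1, 84.5 and 76.8 with SPI and 77.1, 68.0 and 78.1 with CAS. Among 6 kainate receptor probe sets Grik5 (Z11581_at) alone passed, at 553, 342 and 544 with WPH, 293, 387 and 355 with SPI and 378, 390.0 and 318 with CAS, with WPH overlapping CAS (log2 change 0.38, adjusted p = 0.153). NMDA receptor subunits (Grin) passed on 9 of 14 probe sets, more than any other glutamate family. Grin2a (AF001423_at) was the brightest at 273, 167 and 316 with WPH, 236, 323 and 281 with SPI and 322, 223 and 288 with CAS, and the diets overlapped.

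The nearest to a call in WPH against CAS among them was Grin1, the obligatory NMDA subunit. S39221_g_at had 199, 166 and 184 with WPH, 215, 150.1 and 173 with SPI and 164, 84.1 and 109.8 with CAS, with every WPH array just above the CAS arrays (log2 change 0.67, adjusted p = 0.0575). L19708_at, another Grin1 probe set, had 47.9, 52.5 and 85.0 with WPH, 101, 129.5 and 104 with SPI and 71.3, 107 and 77.4 with CAS, with a log2 change of -0.49 (adjusted p = 0.263). The other 2 Grin1 probe sets were under 100 in all diets. Of the metabotropic receptors, Grm4 (M90518_at) passed alone of 9, with 221, 153 and 245 with WPH, 202, 255 and 215 with SPI and 266, 267 and 172 with CAS.

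Drd3 (X53944_at), labelled as the dopamine D3 receptor, was among the brightest receptor signals, yet the gene's other probe set was far below 100. X53944_at had 928, 1304 and 1592 with WPH, 839, 1502 and 1027 with SPI and 1452, 991 and 1136 with CAS, and the diets overlapped (log2 change 0.08, SE 0.24, adjusted p = 0.823). A17753cds_s_at of the same gene had between 8.5 and 10.3 with WPH, between 7.6 and 9.6 with SPI and between 6.0 and 7.9 with CAS. Signals of separate probe sets are not on one scale, and which of the 2 measures Drd3 in this tissue was not tested. Histamine receptors H1 and H2 were under 100, Hrh2 (S57565cds_at) being the brighter with 73.2, 35.6 and 103.4 with WPH, 69.1, 71.2 and 87.5 with SPI and 50.7, 53.8 and 56.8 with CAS.

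Against CAS, SPI gave 6 receptor probe sets higher (10.3%, against 12% of all) and 0 lower (against 10.2% of all), and 15 in either direction had an unadjusted p under 0.05 (25.9%, against 33.6% of all). Of those 15, 14 were higher (24.1%, against 17.6% of all) and 1 was lower (1.72%, against 16% of all). The 6 called were the probe sets of Chrna3, Adrb3, 2 of Htr3a and 2 of P2rx2, and 2 of them (3.45%, against 2.41% of all), both of Htr3a, had measured means at least 2-fold higher. Both are ratios to CAS means under 100, and for U59672_at the bound is 1.69-fold. None had measured means 2-fold or more lower (against 3.37% of all). On AF020757_s_at of P2rx2 SPI was 1.74-fold higher (adjusted p = 0.0420), a call lost without WPH replicate 1 or 2, any 1 SPI replicate, or CAS replicate 1 or 3 (adjusted p = 0.0524 to 0.142). On AF020758_g_at SPI was 1.59-fold higher (adjusted p = 0.0225), lost without SPI replicate 1 or 3 or CAS replicate 1 or 3 (adjusted p = 0.0600 to 0.0956). With wash round as a block, SPI reaches CAS only through the WPH arrays, and only 1.78% of all probe sets were higher. None of the 6 was called there, and all 6 log2 changes kept their sign.

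Set against WPH, SPI gave 0 receptor probe sets higher (against 10.1% of all) and 6 lower (10.3%, against 9.83% of all), and 13 in either direction had an unadjusted p under 0.05 (22.4%, against 31.7% of all). Of those 13, 2 were higher (3.45%, against 14.1% of all) and 11 were lower (19%, against 17.6% of all). The 6 called lower belonged to Chrna3, Adrb3, Adra1d, Htr3a (U01227_s_at) and P2rx2 (AF020758_g_at and U14414_at). Measured means were at least 2-fold lower for 1 (1.72%, against 1.02% of all), which was Adra1d with every SPI array under 100 and a bound of 1.75-fold, so nothing is read from it, and at least 2-fold higher for 0 (against 4.48% of all). AF020758_g_at was 1.48-fold lower with SPI than with WPH (adjusted p = 0.0467), lost without any 1 WPH replicate, SPI replicate 1 or 2, or CAS replicate 1 or 3 (adjusted p = 0.0551 to 0.132). U14414_at was 1.42-fold lower (adjusted p = 0.0459), lost without WPH replicate 1 or 2, any 1 SPI replicate, or CAS replicate 1 (adjusted p = 0.0637 to 0.136). With wash round as a block 3 receptor probe sets were lower (5.17%, against 3.71% of all) and 0 higher (against 6.28% of all). The calls of Adrb3 and of U01227_s_at stood (adjusted p = 0.0178 and 0.0310). The 3 comparisons share their arrays, so their counts are not independent of one another.

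**Figure D5:**
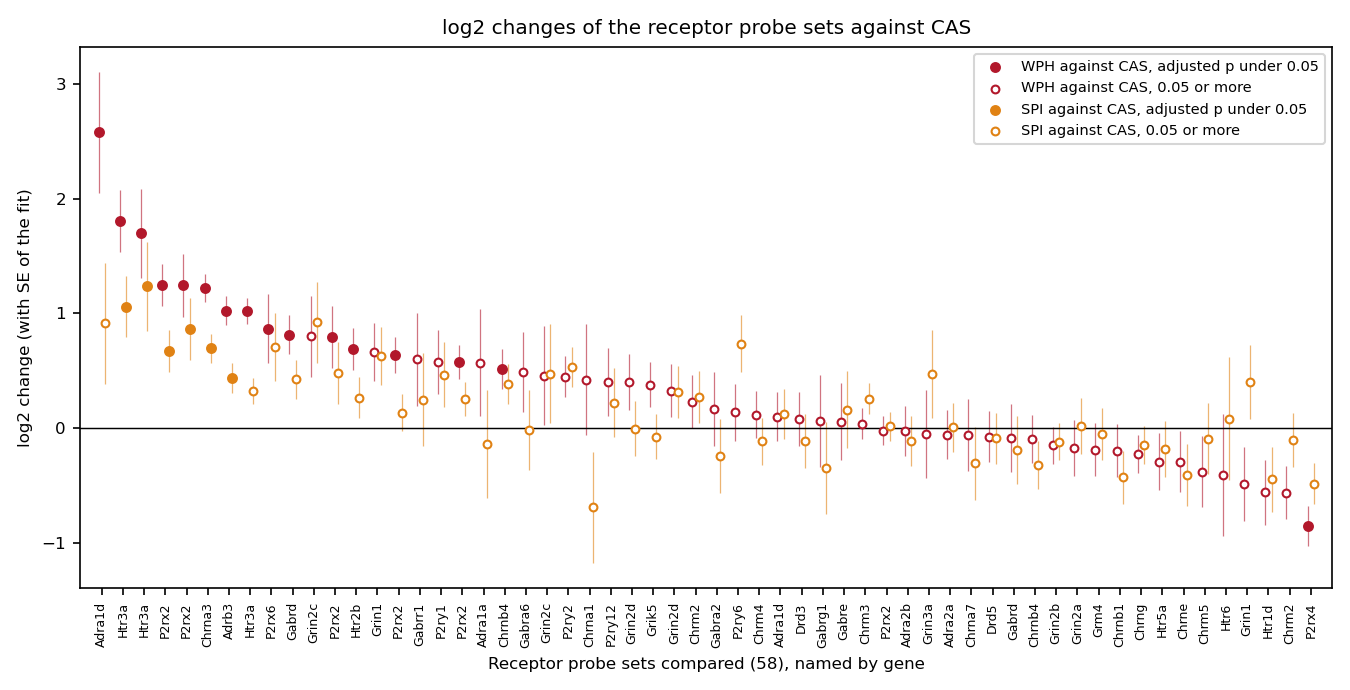
The log2 change against CAS (vertical axis, with the SE of the fit) of the 58 receptor probe sets compared, ordered by the WPH change and named by gene, with WPH left of SPI and filled points at an adjusted p under 0.05. The WPH changes run between 2.58 for Adra1d (M60654_at, under 100 on every SPI and CAS array) and -0.86 for P2rx4, and 37 WPH and 34 SPI changes of 58 lie above 0.

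With wash round as a block, 7 receptor probe sets stayed higher with WPH than with CAS (12.1% of the 58, against 13% of all probe sets), and these are of Chrna3, Adrb3, Adra1d, Htr3a (U01227_s_at and U59672_at) and P2rx2 (AF020757_s_at and AF020758_g_at). Over all 58, the median log2 change within the first round, of the 1 WPH array from the mean of the CAS arrays, was 0.083.

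Of 4 genes of synthesis and packaging compared, Slc18a3, the vesicular acetylcholine transporter, was higher with WPH than with CAS, at 983 ± 115 with WPH, 638 ± 105 with SPI and 467 ± 33.5 with CAS (SD, n = 3; log2 change 1.07, adjusted p = 9.44e-05). Ddc, which makes serotonin and dopamine from their precursors and is abundant in epithelial endocrine cells, was lower, at 44.3 ± 29.2 with WPH, 248 ± 72.4 with SPI and 219 ± 144 with CAS (log2 change of the measured values -2.13, adjusted p = 0.0196). All 3 WPH arrays were under 100, at 26.9, 27.9 and 78.0, so the bound is at least 2.19-fold lower, and they overlapped CAS, where replicate 1 had 54.5. Th, the first enzyme of catecholamine synthesis, and Pnmt, which makes adrenaline, had log2 changes of -0.38 (adjusted p = 0.256) and -0.14 (adjusted p = 0.719).

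Of 18 genes of uptake and breakdown, 1 was higher and 3 were lower with WPH than with CAS, where 21.6% of all genes were higher and 18% lower at 1 probe set per gene. Maob, a monoamine oxidase, was higher (log2 change 0.87, adjusted p = 0.000132), while Glul, the glutamine synthetase, fell by 0.77 (adjusted p = 2.76e-05), Slc22a3, an organic cation transporter, by 0.82 (adjusted p = 0.00786) and Maoa by 0.31 (adjusted p = 0.0406). Of 17 receptor scaffolds, kinases and arrestins 0 were higher and 2 were lower, which were Homer2 (log2 change -1.85, adjusted p = 7.99e-05) and Cask (-0.65, adjusted p = 0.00436). The postsynaptic scaffold Dlg4 had a log2 change of 0.44 (adjusted p = 0.0529) and Homer1 of 0.38 (adjusted p = 0.0769).

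Transmitter receptors with other symbols were also measured. Of 5 compared, Gabbr1, a subunit of the GABA type B receptor, was higher with WPH than with CAS at 676 ± 21.1 with WPH, 478 ± 27.3 with SPI and 342 ± 26.2 with CAS (SD, n = 3; log2 change 0.98, adjusted p = 3.33e-05). Cnr1, the cannabinoid receptor of neurons, was higher at 257 ± 13.8 with WPH, 175 ± 33.2 with SPI and 118 ± 3.56 with CAS (log2 change 1.12, adjusted p = 0.000451). Adora2b, an adenosine receptor of epithelium, was lower at 173 ± 5.92 with WPH, 219 ± 31.6 with SPI and 484 ± 112 with CAS (log2 change -1.46, adjusted p = 7.87e-05). Adora2a and Gabbr2 were compared and not called, and the 3 opioid receptors Oprm1, Oprd1 and Oprk1 were under 100 in all diets.

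Marker lists of the cells in which these receptors are known were set beside them. Median log2 changes with WPH against CAS were 1.30 for neuron, 1.18 for glia, 1.01 for smooth muscle, 1.19 for adipocyte and -2.39 for epithelial markers. Among the called genes, Chrna3 had 1.22, Chrnb4 0.51 and -0.10, Htr3a 1.02, 1.70 and 1.81, and Htr2b 0.69. Gabrd had 0.81 and -0.09, P2rx2 -0.02 to 1.24 over its 6 probe sets, P2rx6 0.87, Adrb3 1.02 and P2rx4 -0.86. Chrm3, which was not called, had 0.04. Adra1d had 0.10 on its brighter probe set. Its 2.58 on M60654_at is taken against CAS signals under 100 and is given as description. These values stand side by side and no difference between them was tested. Kit, the marker of interstitial cells of Cajal on the array, had a log2 change of 0.11 (adjusted p = 0.736). One sign of RNA quality also moved with diet, the ratio of 3′ to 5′ signal of β-actin, which lay between 2.53 and 3.50 with WPH, 2.14 and 2.36 with SPI and 1.83 and 1.88 with CAS, while that of GAPDH overlapped at 1.57 to 1.70 with WPH, 1.48 to 1.65 with SPI and 1.34 to 1.71 with CAS. Its part in the receptor values was not tested.

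Near background, the 87 probe sets under 100 had a highest diet mean between 6.3 and 97.3, with a median of 43.0, and 17 had 1 or more single arrays at 100 or above. Just below the limit were Chrna6 at 93.8, Grm2 at 95.8 and Chrnd at 97.3 with WPH and Adra2a (U79031_at) at 96.4 with SPI. Just above it were Chrna1 at 102.9 with WPH, Grin2c (U08259_r_at) at 100.4 and Gabre at 102.3 with SPI, and Gabrd (M35162_at) at 100.2 with CAS. A signal under 100 means that expression was not told apart from background on this array, not that the receptor is absent.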

How the data were processed

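Per the labels and the study's methods, the authors pooled RNA of 7 rats per diet, made 3 targets in parallel from 8 µg of RNA each, hybridized 10 µg of cRNA for 16 h to Affymetrix rat genome arrays, and deposited linear MAS 5.0 signals scaled to a common average. These deposited signals were used as they stood. Gene names came from the platform annotation (7018 probe sets with 1 symbol, 308 with several, 1473 with none), and all 145 receptor gene IDs matched RefSeq symbols. Signals under 0.1 were set to 0.1 and log2 taken. Probe sets that were not array controls and had a mean of at least 100 in a diet were fitted with limma 3.58.1 in R 4.3.3 (lmFit, eBayes with trend, 3 diets in 1 fit, no block), and p-values were adjusted by Benjamini-Hochberg over 5606 probe sets. The script was tested on simulated data. Fold is the ratio of mean signals, with arrays set to 100 where a diet's 3 arrays were all under 100. Named were the probe sets called in any comparison at an adjusted p under 0.05, the brightest of each family, other probe sets of those genes, and up to 4 genes of each other list with the smallest adjusted p. The brightest of a family was taken by mean linear signal, that of a gene by mean log2 signal. Others were named after their values were seen. Receptors and lists were chosen with earlier results of these data known. Instrument settings were read only for the field labelled Hybridize Date, and arrays within 10 minutes of each other were taken as 1 round. The rounds are called wash rounds here, a name that this label does not give. Alternatives were other floors, filters, scalings and fits, the methods' t-test, 1 probe set per gene, blocks for wash round or replicate number, and leaving out each array. The difference within a wash round was also counted as an alternative, which has no p-value and was judged by its sign. For WPH against CAS and for SPI against WPH it equals the estimate with wash round as a block, so it is not a separate check. Precision is limited by 3 arrays per diet.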

Additional observations from a re-analysis of the deposited data

How the results depend on the processing

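The count of 15 receptor probe sets higher with WPH than with CAS became 8 at 1 probe set per gene, 7 with wash round as a block, 8 at 2-fold or more and 9 by the methods' t-test with Benjamini-Hochberg, and was 12 to 16 with 1 array left out. The count of 1 lower became 2 with the floor at 50, without the variance trend and by the methods' t-test with or without adjustment (P2rx4 and Chrm2), 2 without a filter (P2rx4 and Gabra4), and 0 at 2-fold or more. For SPI against CAS, 6 higher became 2 at 1 probe set per gene, with replicate number as a block and at 2-fold or more, 0 with wash round as a block, 10 by the unadjusted methods' t-test and 1 to 7 with 1 array left out (1 without SPI replicate 3). The 0 lower became 1 by the unadjusted t-test and 0 to 1 with 1 array left out (1 without CAS replicate 2). For SPI against WPH, 6 lower became 3 at 1 probe set per gene and with either block (with wash round, Adrb3, Htr3a and Grik5), 1 at 2-fold or more and by the adjusted t-test, and 3 to 5 with 1 array left out. After adjustment that t-test ended 6 of the 15 calls of WPH against CAS, 5 of the 6 of SPI against CAS and 5 of the 6 of SPI against WPH. The 0 higher became 2 without the variance trend, 3 by the unadjusted t-test and 0 to 1 with 1 array left out (1 without WPH replicate 3).

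With the filter at 200 the probe sets compared fell to 27 in place of 58, and the median log2 change became 0.51 for WPH against CAS, 0.26 for SPI against CAS and -0.31 for SPI against WPH. For WPH against CAS the median of 0.20 became 0.126 at 1 probe set per gene and 0.083 with wash round as a block. It was 0.195 to 0.341 with 1 array left out (0.341 without WPH replicate 2). For SPI against CAS the median of 0.13 became 0.0125 at 1 probe set per gene, 0.0202 with wash round as a block and 0.032 to 0.172 with 1 array left out (0.032 without SPI replicate 3, 0.040 without CAS replicate 3). For SPI against WPH it was -0.16 without a filter, -0.18 with wash round as a block and within the second round, and -0.162 to -0.0644 with 1 array left out. Signs turned for 3 differences that were not called, AF028603_s_at of P2rx2 in SPI against CAS with wash round as a block (-0.59), U42976_at of Chrnb4 in SPI against WPH with 1 array left out (-0.274 to 0.0920, above 0 without WPH replicate 3), and X92070_at of P2rx6 in SPI against WPH with wash round as a block and within the second round (0.0332). The cause was not tested. Quantile normalization and median centring turned no sign among the named probe sets.

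Same-numbered arrays correlated between -0.275 and 0.237 in their deviations from the diet means, so the numbers do not pair the arrays. With replicate number as a block, 15 of the 16 calls in WPH against CAS were kept, P2rx6 being lost (adjusted p = 0.0523, with a range of 0.0211 to 0.167 over its alternatives). Signals near 100 limit what could be called, and 3 targets of 1 pool cannot give the spread between rats.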
